A study of Mus musculus with 180 samples.

Results

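The genes described here are 40 mouse genes of the cell cycle and of DNA replication, out of 45070 genes with values in the series. They were chosen by name, for what their products do in dividing cells, with earlier results of these data known. All 40 averaged 10 or more across the 180 samples and so entered the test. They fall into 4 groups by role, with 7 G1 cyclins, kinases and inhibitors, 6 regulators of the G1/S transition, 12 genes of DNA replication and 15 genes of G2 and mitosis. The cells were wild type bone marrow-derived macrophages (BMDM), grown from the marrow of young male C57/BL6 mice. Each culture was treated for 1 h with a clinical kinase inhibitor (CKI) or with its solvent DMSO, then received LPS, a component of the bacterial outer membrane, at 10 ng/mL for 2 h. Each of the 58 CKIs has 3 samples, numbered 1 to 3 as independent biological replicates, and DMSO has 6 samples in 2 sets of 3, which makes 180 samples. Every sample had received LPS, so no comparison with resting cells was possible. Each CKI was used at a single concentration. Concentrations differed between CKIs, and for several they were set on a kinase other than the one the CKI was designed against. The RNA came from whole cultures, so fewer cycling cells and less RNA per cycling cell cannot be told apart.

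A cell enters the cycle when D-type cyclins (*Ccnd1*, *Ccnd2*, *Ccnd3*) join the kinases CDK4 and CDK6, which is opposed by the inhibitors p27 (*Cdkn1b*) and p18 (*Cdkn2c*). E2F factors then raise the genes that license and copy DNA, among them the MCM helicase, and later the cyclins A and B with CDK1 drive the cell through G2 and mitosis. Macrophages grown from marrow divide while growth factor is present, and activation by LPS is known to slow their division, so a culture harvested after LPS can still hold cells in every phase.

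Promoters of such genes often hold short sequences bound by E2F or by the complexes that repress genes outside G2 and mitosis. Promoters of 34 of the 40 genes were found in RefSeq sequence for GRCm38.p6, the release of the mm10 build, from 250 bases before to 50 bases after the start. An E2F-type sequence, TTTCGCGC or TTTGGCGC on either strand, lay in the promoters of 8 of these 34 genes and of 0.929% of 27025 genes, and 5 of the 11 matched replication genes held it. The cell cycle homology region (CHR), TTTGAA or TTCGAA on either strand, lay in 14 of the 34 and in 21.7% of all genes, and 10 of the 13 matched genes of G2 and mitosis held it. The pentamer CCAAT lay in 26 of the 34 and in 41.1% of all genes. No promoter was read for *Ccnd1*, *Ccnd2*, *Ccna2*, *Ccne2*, *Mcm4* and *Tpx2*. A match is a description of these letters and not a measured binding site.

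The stretches of 3 promoters with the E2F-type letters in capitals are shown, since the helicase genes *Mcm5* and *Mcm6* differed with the replicate number and *Cdc25a* was called with more CKIs than any other member. Only bases before the start are printed. In *Mcm5*, and at the first match in *Mcm6*, matches on opposite strands overlap.
Mcm5 (chr8:75109336-75109387, plus strand): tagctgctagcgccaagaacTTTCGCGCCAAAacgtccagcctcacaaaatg
Mcm6 (chr1:128359725-128359835, minus strand): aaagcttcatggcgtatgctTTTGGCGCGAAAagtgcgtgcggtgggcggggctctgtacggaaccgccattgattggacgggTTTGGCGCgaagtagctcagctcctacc
Cdc25a (chr9:109875492-109875539, plus strand): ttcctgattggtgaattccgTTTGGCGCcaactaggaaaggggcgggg

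The CHR letters are in capitals in the stretches of 5 promoters of G2 and mitosis, those of *Cdc20* and *Ube2c*, which fell with Volasertib, and those of *Cdk1*, *Top2a* and *Mki67*, the markers most used for dividing cells.
Cdc20 (chr4:118437344-118437381, minus strand): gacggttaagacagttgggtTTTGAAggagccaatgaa
Ube2c (chr2:164769880-164769925, plus strand): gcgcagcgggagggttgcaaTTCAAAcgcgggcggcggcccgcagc
Cdk1 (chr10:69352913-69353003, minus strand): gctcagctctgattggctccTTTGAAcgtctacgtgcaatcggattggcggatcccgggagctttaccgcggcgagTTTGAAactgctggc
Top2a (chr11:99024190-99024388, minus strand): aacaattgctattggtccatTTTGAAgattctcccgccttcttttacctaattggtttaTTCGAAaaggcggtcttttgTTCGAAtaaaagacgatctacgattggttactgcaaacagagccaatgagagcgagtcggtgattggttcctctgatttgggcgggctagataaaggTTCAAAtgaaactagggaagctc
Mki67 (chr7:135716452-135716515, minus strand): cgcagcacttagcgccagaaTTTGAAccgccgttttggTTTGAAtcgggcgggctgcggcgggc

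The deposited values of a sample summed to between 9477340 and 12273349. Expression is given here as these normalized values, which the authors had scaled between samples. Differences are given as Log2FC after adding 1 to each value, which makes the change of low genes look smaller than it was. A gene was called when its adjusted p in limma was under 0.05. All 9 macrophage markers were detected and summed to between 88403 and 252519 per sample, against 0 to 31 for T cells, 1 to 46 for B cells, 0 to 6 for erythroid cells, 4 to 222 for fibroblasts, 33 to 162 for dendritic cells, 91 to 370 for myeloid progenitors and 222 to 2211 for neutrophils. Mitochondrial transcripts made up 0.525 to 4.47% of a sample, and 0.759 to 1.94% in the DMSO samples. Replicate 2 of DMSO set 2 stood apart from the other 5 DMSO samples in *Ccna2* (3475 against 1598 to 2175) and *Ccnb1* (762 against 1123 to 1274), and replicate 1 of that set in *Cdc25a* (31 against 69 to 84). Since all CKIs share the 6 DMSO samples, comparisons of different CKIs with DMSO are not independent of each other. Totals are given with and without replicates 1 and 2 of DMSO set 2. Counts of single CKIs are given without them only in part, and the counts not given may change too.

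With DMSO and LPS the genes of all 4 roles were detected in each of the 6 samples. Per kilobase of transcript, *Pcna*, the clamp that holds DNA polymerases on the template, was the highest of the 40 at 2375 ± 533 (SD, n = 6). *Ube2c*, which gives the anaphase-promoting complex its ubiquitin, followed at 1768 ± 313 per kilobase, and *Cdk4* at 1241 ± 182. The 6 samples of neighbours in this order overlapped. *Cdc6*, which loads the MCM helicase onto origins, was the lowest at 3.95 ± 1.61 per kilobase. By role, the medians per kilobase were 380 for replication, 233 for G2 and mitosis, 223 for the G1 genes and 26.4 for the G1/S regulators, whose members reached at most 64.0. The D-type cyclins were present together, with 382 ± 122 per kilobase for *Ccnd1*, 359 ± 97.6 for *Ccnd3* and 163 ± 35.8 for *Ccnd2*, and the ranges of *Ccnd1* and *Ccnd3* overlapped. The proliferation marker *Mki67*, a protein that coats mitotic chromosomes, had normalized values of 2144, 2004 and 958 in DMSO set 1 and 2319, 1778 and 1588 in set 2. *Top2a*, which untangles replicated DNA, had 1986, 2031 and 1562 in DMSO set 1 and 1741, 2513 and 2521 in set 2.

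Across the 58 CKIs, 86 of 2320 comparisons of a member with DMSO were called, 52 higher and 34 lower. That is 2.24% higher and 1.47% lower, beside 2.52% and 1.65% of all 12714 genes tested over the same comparisons, so the members as a whole were not called more often than other genes. The calls came from 14 CKIs, and 44 CKIs had none by limma, with 0 to 12 of the 40 members at an unadjusted p under 0.05 in each of them. The 7 G1 genes gave 5 higher and 8 lower calls, the 6 G1/S regulators 5 and 8, the 12 replication genes 15 and 2, and the 15 genes of G2 and mitosis 27 and 16. *Cdc25a* was called with 7 CKIs, *Cenpf* and *Pcna* with 6 each, and 11 members were never called. Of the 86 calls, 62 had all 3 CKI samples beyond the range of the 6 DMSO samples and 24 overlapped it. The fit behind these counts held no term for the replicate number. With one, 176 comparisons were called in 29 CKIs, beside 7.68% of the comparisons over all genes. With the mitochondrial share as a further term, 90 were called in 20 CKIs, beside 4.19%.

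The split between higher and lower calls depended on how samples were put on a common scale. After further scaling by the median of ratios, which moved the median Log2FC of all genes by -0.198 to 0.044 and by over 0.1 in 18 CKIs, 33 members were called higher and 42 lower. Against the mean of the other CKIs in place of DMSO, 22 were higher and 51 lower. Without replicate 2 of DMSO set 2 the calls fell to 44, 21 higher and 23 lower, and without replicate 1 of that set they were 119, 71 higher and 48 lower. In none of these settings did a called member change its direction.

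**Figure D1:**
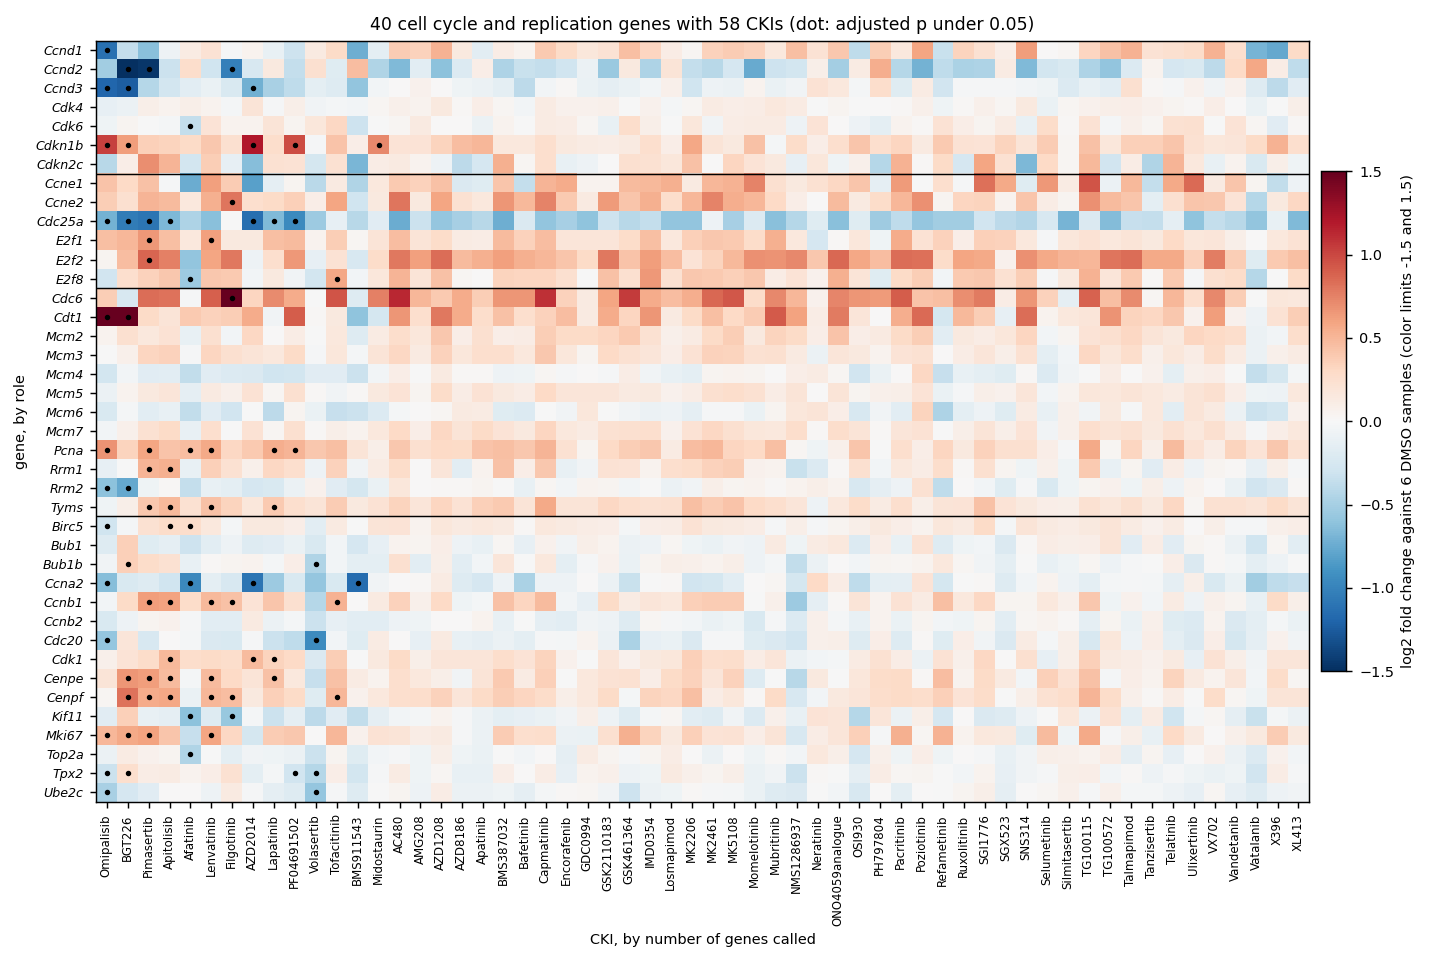
Log2FC of the 40 genes (rows, by role) with each of the 58 CKIs (columns, ordered by the number of genes called) against the 6 DMSO samples, with a dot where the adjusted p was under 0.05 and colors limited at -1.5 and 1.5. The dots stand in 14 columns, no value of *Cdc25a* is above 0, and the rows *Mcm2* to *Mcm7* hold no dot.

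The CKIs designed against PI3K, mTOR and AKT, kinases that couple growth factor receptors to protein synthesis and cell growth, had the called G1 genes described next. As a class of 9 CKIs against DMSO, 8 members were called higher and 3 lower, beside 21.7% and 8.53% of all genes, and the median Log2FC of the members was 0.091 beside 0.102 for all genes. The 3 lower members were *Cdc25a* (Log2FC -0.68 ± 0.16 SE, adjusted p = 0.000573), *Ccnd2* (Log2FC -0.52 ± 0.16 SE, adjusted p = 0.0085) and *Ccnd3* (Log2FC -0.49 ± 0.13 SE, adjusted p = 0.00373). Among the higher members the p27 gene *Cdkn1b* (Log2FC 0.64 ± 0.12 SE, adjusted p = 4.36e-05) and the licensing factor gene *Cdt1* (Log2FC 0.75 ± 0.22 SE, adjusted p = 0.00742) differed most. Their means lay above the DMSO mean in 9 of 9 of these CKIs, but also in 56 (*Cdkn1b*) and 52 (*Cdt1*) of all 58. *Pcna* (Log2FC 0.44, adjusted p = 0.00126), *Cenpf* (Log2FC 0.37, adjusted p = 0.00277), *Cdk1* (Log2FC 0.29, adjusted p = 0.00648), *Cenpe* (Log2FC 0.29, adjusted p = 0.0315), *Mki67* (Log2FC 0.31, adjusted p = 0.0349) and *Tyms* (Log2FC 0.24, adjusted p = 0.0388) were the others. With scaling by the median of ratios 5 members were higher and 5 lower, without replicate 2 of DMSO set 2 the class had 4 higher and 1 lower, and without number 2 in every group 1 member was called.

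*Ccnd3* (cyclin D3, chr17:47505051-47599689, plus strand) had DMSO values of 597, 846 and 850 in DMSO set 1 and 543, 1157 and 871 in set 2. It stood at 280, 373 and 353 with BGT226, designed against PI3K and mTOR (Log2FC -1.24 ± 0.21 SE, adjusted p = 5.75e-07), and at 332, 376 and 326 with Omipalisib, of the same kind (Log2FC -1.19 ± 0.21 SE, adjusted p = 2.62e-06). All 6 of these samples lay below the lowest DMSO sample, and both calls were kept in every alternative run. With the mTOR inhibitor AZD2014 the values were 388, 529 and 520 (Log2FC -0.73 ± 0.21 SE, adjusted p = 0.00634), again below all DMSO samples, though the call was lost without AZD2014 replicate 1.

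*Ccnd2* (cyclin D2, chr6:127125708-127151048, minus strand) had DMSO values of 948, 1160 and 681 in DMSO set 1 and 912, 1197 and 764 in set 2. With BGT226 it fell to 237, 238 and 402 (Log2FC -1.70 ± 0.25 SE, adjusted p = 5.84e-09), its lowest mean with any of the 58 CKIs and less than every DMSO sample. *Ccnd1* (cyclin D1, chr7:144929931-144939831, minus strand) varied more, with DMSO values of 1005, 1371 and 1702 in DMSO set 1 and 808, 1827 and 1926 in set 2. Of the 58 CKIs only Omipalisib had it called, at 522, 766 and 634 (Log2FC -1.11 ± 0.40 SE, adjusted p = 0.0297), and that call was lost without 1 of 3 DMSO samples (replicate 3 of set 1, replicates 2 and 3 of set 2) or without Omipalisib replicate 1 or 3. With BGT226 the *Ccnd1* values were 706, 1330 and 1318 (Log2FC -0.35, adjusted p = 0.539) and with AZD2014 915, 1531 and 2048 (Log2FC 0.051, adjusted p = 0.953).

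*Cdkn1b* (chr6:134920401-134925525, plus strand) rose with 5 CKIs and fell with none. Its DMSO values were 291, 213 and 163 in DMSO set 1 and 303, 177 and 158 in set 2. With AZD2014 it was 544, 462 and 456 (Log2FC 1.21 ± 0.19 SE, adjusted p = 2.17e-07), the highest of the 58 means. Omipalisib gave 491, 449 and 354 (Log2FC 1.02 ± 0.19 SE, adjusted p = 1.07e-05) and PF04691502, designed against PI3K and mTOR, 469, 360 and 425 (Log2FC 0.98 ± 0.19 SE, adjusted p = 0.000101). In all 9 samples of these 3 CKIs the value exceeded the highest DMSO sample. With BGT226 the values were 393, 316 and 276 (Log2FC 0.63 ± 0.19 SE, adjusted p = 0.007), of which 2 exceeded all DMSO samples and whose call was lost with scaling by the median of ratios, and the multi-kinase inhibitor Midostaurin gave 388, 323 and 335 (Log2FC 0.72 ± 0.19 SE, adjusted p = 0.00966). Apitolisib, also designed against PI3K and mTOR, gave 306, 310 and 196 (Log2FC 0.33, adjusted p = 0.208), of which 1 lay inside the DMSO range. The other G1 inhibitor, *Cdkn2c*, was called with no CKI and ranged from 25 to 139 over all samples, with DMSO values of 128, 82 and 45 in DMSO set 1 and 92, 74 and 51 in set 2.

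*Cdt1* (chr8:122568015-122573130, plus strand), which loads the MCM helicase with CDC6, had DMSO values of 322, 359 and 447 in DMSO set 1 and 304, 527 and 438 in set 2. It rose to 1103, 1522 and 1635 with BGT226 (Log2FC 1.83 ± 0.34 SE, adjusted p = 6.65e-06) and to 1110, 1462 and 1131 with Omipalisib (Log2FC 1.64 ± 0.34 SE, adjusted p = 9.18e-05). All 6 samples lay above 1100, against 527 in the highest DMSO sample, and *Cdt1* was called with no other CKI. *Rrm2*, a subunit of ribonucleotide reductase, fell with the same pair, to 640, 988 and 840 with BGT226 (Log2FC -0.77 ± 0.23 SE, adjusted p = 0.00473) and 787, 918 and 1004 with Omipalisib (Log2FC -0.62 ± 0.23 SE, adjusted p = 0.0309), from DMSO values of 1175, 1425 and 1815 in DMSO set 1 and 887, 1482 and 1744 in set 2. Here 2 and 1 of the 3 samples lay below DMSO, and the Omipalisib call was lost without replicate 3 of DMSO set 1, replicate 2 or 3 of set 2 or its own replicate 1 or 2.

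**Figure D2:**
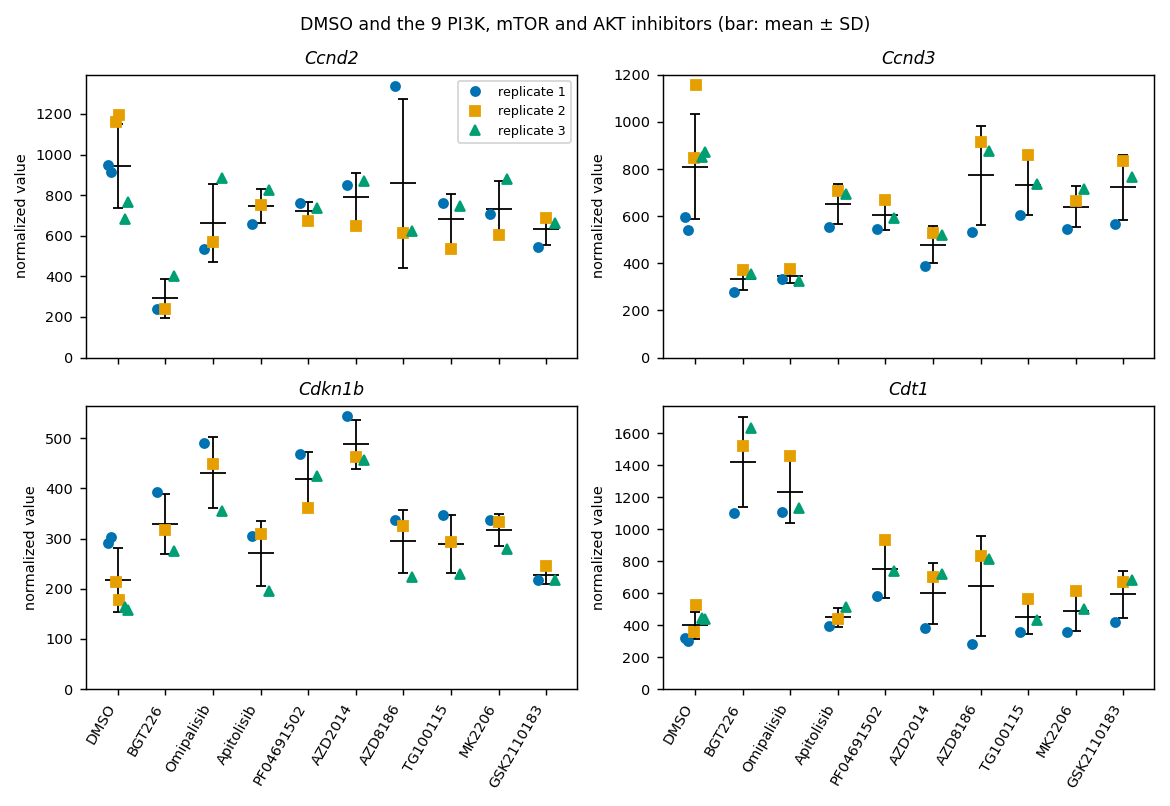
Normalized values of *Ccnd2*, *Ccnd3*, *Cdkn1b* and *Cdt1* in the 6 DMSO samples and in the 3 samples of each of the 9 PI3K, mTOR and AKT inhibitors, by replicate number, with mean ± SD. BGT226 and Omipalisib lie lowest for *Ccnd3* and highest for *Cdt1*, and AZD2014 is highest for *Cdkn1b*.

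BGT226 had 7 members called higher and 4 lower beside 24.1% and 6.32% of all genes, and 3 higher and 6 lower with scaling by the median of ratios. Among them *Cenpf*, a kinetochore protein, rose to 523, 464 and 464 (Log2FC 0.82 ± 0.15 SE, adjusted p = 4.14e-06) from DMSO values of 315, 291 and 198 in DMSO set 1 and 333, 251 and 275 in set 2. *Cenpe*, the motor that carries chromosomes to the metaphase plate, rose to 460, 433 and 448 (Log2FC 0.66 ± 0.17 SE, adjusted p = 0.00116) from 310, 312 and 192 in DMSO set 1 and 384, 278 and 260 in set 2. All 6 of those BGT226 samples exceeded DMSO, and *Mki67* (Log2FC 0.57, adjusted p = 0.0103), *Bub1b* (Log2FC 0.36, adjusted p = 0.0166) and *Tpx2* (Log2FC 0.26, adjusted p = 0.0277) were also higher, calls that further scaling ended.

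Omipalisib had 4 members higher and 9 lower beside 17.5% and 8.16% of all genes. *Ube2c* fell to 1170, 1117 and 1183 (Log2FC -0.49 ± 0.12 SE, adjusted p = 0.00133) from DMSO values of 1458, 1590 and 2090 in DMSO set 1 and 1255, 1645 and 1837 in set 2. *Cdc20*, the activator of the anaphase-promoting complex, fell to 683, 733 and 753 (Log2FC -0.58 ± 0.19 SE, adjusted p = 0.0166) from 970, 1124 and 1343 in DMSO set 1 and 797, 1157 and 1179 in set 2. All samples of both lay below DMSO. *Tpx2*, a spindle assembly factor, gave 527, 588 and 520 (Log2FC -0.32 ± 0.094 SE, adjusted p = 0.00621) and *Birc5* (survivin) 1276, 1301 and 1098 (Log2FC -0.30 ± 0.097 SE, adjusted p = 0.0134), also below all DMSO samples. *Mki67* was higher at 2496, 2671 and 2212 (Log2FC 0.50 ± 0.18 SE, adjusted p = 0.0311), a call lost with scaling by the median of ratios. *Ccna2* (cyclin A2) at 1403, 1432 and 1325 was called lower (Log2FC -0.63 ± 0.25 SE, adjusted p = 0.0469), a call lost without any of 4 DMSO samples, and *Pcna* at 4812, 4799 and 4364 was higher (Log2FC 0.67 ± 0.17 SE, adjusted p = 0.00116). The Omipalisib count was 8 without its replicate 1. The 4 dendritic cell markers, all detected, summed to 114 to 162 in the Omipalisib samples against 61 to 92 with DMSO, and their part in these results was not tested.

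AZD2014 had 2 members higher and 3 lower, beside 6.06% and 13.5% of all genes. *Ccna2* stood at 833, 918 and 1338 (Log2FC -1.09 ± 0.25 SE, adjusted p = 0.000345), below all DMSO values of 1998, 2175 and 1947 in DMSO set 1 and 1598, 3475 and 2116 in set 2. *Cdk1*, the kinase of mitotic entry, was higher at 1333, 1337 and 1531 (Log2FC 0.48 ± 0.13 SE, adjusted p = 0.00436). PF04691502 had 2 higher and 2 lower beside 8.86% and 4.22%, with *Pcna* at 4260, 4186 and 4021 (Log2FC 0.51, adjusted p = 0.0311) and *Tpx2* at 509, 561 and 604 (Log2FC -0.29, adjusted p = 0.0286) next to *Cdkn1b* and *Cdc25a*. Of these 4 calls 2 were kept without replicate 2 of DMSO set 2 or PF04691502 replicate 2, and 1 without PF04691502 replicate 1. Apitolisib had 7 higher and 1 lower beside 12.7% and 3.2%. Dendritic cell markers summed to 35 to 61 with AZD2014. No member was called with AZD8186 and TG100115 (PI3K) or MK2206 and GSK2110183 (AKT), where 2, 12, 10 and 5 of 40 were at an unadjusted p under 0.05. This fit held no term for the replicate number. With one, 1, 8, 6 and 0 members were called higher in the same order and 0 lower. With the mitochondrial share as a further term, 1, 0, 1 and 0 were higher and 0 lower. Concentrations differed between these CKIs and were set on other kinases for BGT226 (CLK1), Omipalisib (IRAK3), AZD2014 (PFKP), PF04691502 (CSNK2A2) and Apitolisib (JAK1), so no CKI was compared with another.

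*Cdc25a* (chr9:109875579-109893890, plus strand), the phosphatase that activates the kinases of S phase entry, was a low gene with DMSO values of 69, 84 and 70 in DMSO set 1 and 31, 83 and 79 in set 2. It was called lower with 7 CKIs, at 26, 30 and 33 with AZD2014 (Log2FC -1.13 ± 0.24 SE, adjusted p = 0.000139), 21, 43 and 31 with Pimasertib (Log2FC -1.09 ± 0.24 SE, adjusted p = 0.0013) and 36, 20 and 43 with BGT226 (Log2FC -1.05 ± 0.24 SE, adjusted p = 0.000287), and with PF04691502, Omipalisib, Apitolisib and Lapatinib. Because replicate 1 of DMSO set 2 was at 31, the samples overlapped DMSO in each of the 7. The fitted difference was below DMSO with all 58 CKIs (Log2FC -0.0043 to -1.13). Against the mean of the other CKIs, only AZD2014 and BGT226 had it called lower.

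Pimasertib, designed against MEK1/2, Apitolisib, Lenvatinib (VEGFR) and Lapatinib (EGFR and ERBB2) had more members called higher than lower, which also held for all genes tested. With Lapatinib the share of members called higher was below that of all genes, and with the others it was above. The median share of mitochondrial transcripts in the samples of these CKIs was above that in DMSO. Pimasertib had 9 members higher and 2 lower beside 16.0% and 5.68% of all genes, and 7 and 3 with scaling by the median of ratios. *Cenpe* gave 409, 473 and 437 (Log2FC 0.63 ± 0.17 SE, adjusted p = 0.00676), *Cenpf* 360, 387 and 463 (Log2FC 0.55 ± 0.15 SE, adjusted p = 0.00754). *Ccnb1* (cyclin B1) gave 1555, 1770 and 1823 (Log2FC 0.62 ± 0.17 SE, adjusted p = 0.00747) against DMSO values of 1274, 1126 and 1236 in DMSO set 1 and 1123, 762 and 1242 in set 2. All of these samples were above DMSO. *E2f2* (Log2FC 0.87 ± 0.32 SE, adjusted p = 0.0383), *E2f1* (Log2FC 0.65 ± 0.21 SE, adjusted p = 0.0203), *Mki67* (Log2FC 0.60, adjusted p = 0.015), *Pcna* (Log2FC 0.59, adjusted p = 0.00943), *Rrm1* (Log2FC 0.51, adjusted p = 0.0174) and *Tyms* (Log2FC 0.40, adjusted p = 0.0325) were the other higher members. *Ccnd2* fell to 259, 493 and 295 (Log2FC -1.46 ± 0.25 SE, adjusted p = 9.70e-06), below every DMSO sample, and this call was kept in every alternative run. The count of 11 was 7 without replicate 2 of DMSO set 2, 7 without Pimasertib replicate 2 and 4 without Pimasertib replicate 3.

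With Apitolisib the 7 higher members were led by *Ccnb1* at 1561, 1718 and 1798 (Log2FC 0.60 ± 0.17 SE, adjusted p = 0.018), *Cenpf* at 413, 406 and 405 (Log2FC 0.58 ± 0.15 SE, adjusted p = 0.0136) and *Rrm1*, the large subunit of ribonucleotide reductase, at 1979, 2209 and 2413 (Log2FC 0.53 ± 0.16 SE, adjusted p = 0.0223), beside *Cdk1*, *Tyms*, *Cenpe* and *Birc5*. Lenvatinib had 7 higher and 0 lower beside 11.4% and 0.802% of all genes, with *E2f1* (Log2FC 0.61 ± 0.21 SE, adjusted p = 0.0438), *Mki67* at 2491, 2509 and 2827 (Log2FC 0.59 ± 0.18 SE, adjusted p = 0.0331) and *Pcna* (Log2FC 0.57 ± 0.17 SE, adjusted p = 0.028) furthest from DMSO, but 0 higher and 1 lower with scaling by the median of ratios. Lapatinib had 4 higher and 1 lower beside 18.1% and 5.26%, of which *Pcna* at 4259, 3863 and 4689 differed most (Log2FC 0.54 ± 0.17 SE, adjusted p = 0.016). These calls rested on few samples. Without replicate 2 of DMSO set 2 no member was called with Apitolisib or Lenvatinib, and without Apitolisib replicate 2 or 3 the Apitolisib count was 1 or 0. The Lenvatinib count was 4, 1 and 3 without replicate 2 or 3 of DMSO set 1 or replicate 3 of set 2, and 4, 0 and 0 without its own replicates 1, 2 and 3. Only 2 of the 7 Lenvatinib calls were kept without its replicate 1, so that count of 4 includes new calls. Of the 5 Lapatinib calls none was kept without replicate 2 of DMSO set 2 or Lapatinib replicate 1 or 3, 2 without Lapatinib replicate 2, and 3 without replicate 2 or 3 of DMSO set 1 or replicate 3 of set 2.

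Mitochondrial transcripts made up 3.24 to 4.29% of the Pimasertib samples, 1.49 to 4.04% with Apitolisib, 2.07 to 3.70% with Lenvatinib and 1.92 to 3.71% with Lapatinib, against 0.759 to 1.94% with DMSO. Summed neutrophil markers were 1338 to 1503, 840 to 1347, 723 to 1453 and 1282 to 1515 in the same order, against 266 to 993 with DMSO. The marker *Ly6g* had a median of 0 in DMSO and in 3 of these 4 CKIs, all but Apitolisib. The part of neutrophils in these results was not tested. When the mitochondrial share and the replicate number were terms of the fit, no member was called higher or lower with Apitolisib, Lenvatinib or Lapatinib, and Pimasertib kept 0 of its 9 higher calls and both lower ones. BGT226 kept all 7 higher and 4 lower calls in that fit and Omipalisib 3 of 4 and 9 of 9. Over all CKIs it kept 19 of the 52 higher and 32 of the 34 lower calls.

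**Figure D3:**
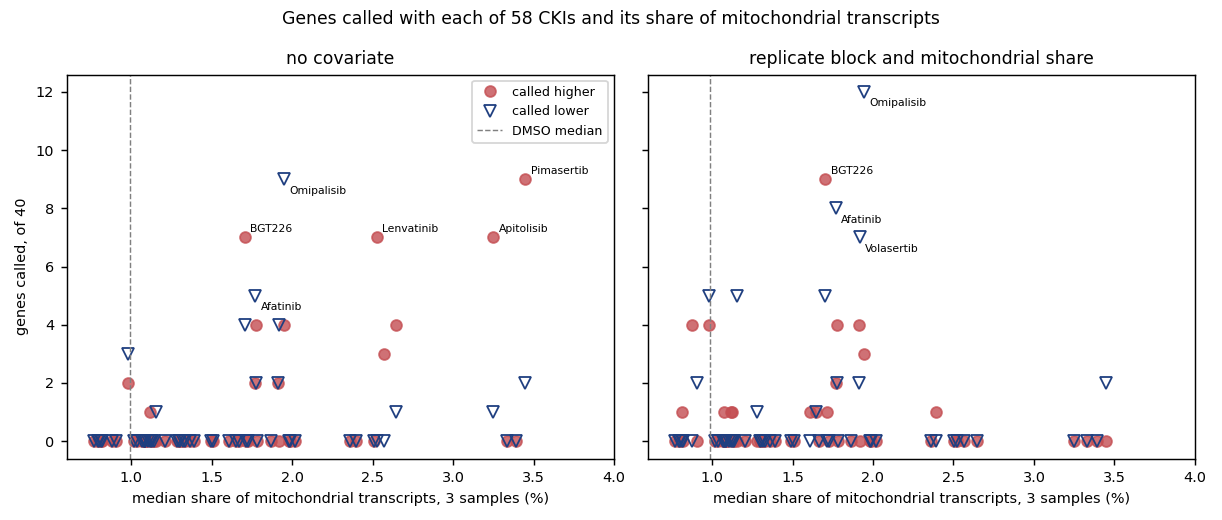
Number of the 40 genes called higher (red circles) and lower (blue triangles) with each of 58 CKIs against the median share of mitochondrial transcripts in its 3 samples (%), without covariates (left) and with the replicate number and that share as terms (right). Pimasertib, Apitolisib and Lenvatinib, at medians of 2.52 to 3.45%, have 7 to 9 genes called higher on the left and 0 on the right.

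Tofacitinib (JAK3) had 3 higher and 0 lower beside 9.02% and 0.857% of all genes, namely *E2f8*, a repressor among the E2Fs, at 327, 431 and 358 (Log2FC 0.58 ± 0.17 SE, adjusted p = 0.0284), *Ccnb1* (Log2FC 0.52, adjusted p = 0.0392) and *Cenpf* (Log2FC 0.49, adjusted p = 0.0311). Its samples held 1.35 to 4.01% mitochondrial transcripts, and none of the 3 was called with that share and the replicate number as terms. None was kept without replicate 2 of DMSO set 2, and 1 without replicate 3 of set 1. Midostaurin had only *Cdkn1b* called, beside 2.63% of genes higher and 1.93% lower.

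Afatinib, designed against EGFR and ERBB2, had 5 members lower and 2 higher, beside 12.8% lower and 9.06% higher among all genes. *Ccna2* gave 917, 1045 and 1392 (Log2FC -0.97 ± 0.25 SE, adjusted p = 0.00231) and *E2f8* 159, 173 and 177 (Log2FC -0.54 ± 0.17 SE, adjusted p = 0.0157) against DMSO values of 243, 279 and 272 in DMSO set 1 and 208, 221 and 267 in set 2. Those 6 samples were below DMSO. *Kif11*, the motor that separates the spindle poles, gave 440, 397 and 999 (Log2FC -0.62 ± 0.21 SE, adjusted p = 0.0231), *Top2a* 1337, 1145 and 2132 (Log2FC -0.45 ± 0.15 SE, adjusted p = 0.0188) and *Cdk6* 1824, 1577 and 2637 (Log2FC -0.36 ± 0.14 SE, adjusted p = 0.0444). In each of these 3 genes Afatinib replicate 3 stood well above the other 2 samples and inside the DMSO range. The higher members were *Pcna* (Log2FC 0.47, adjusted p = 0.0324) and *Birc5* (Log2FC 0.26, adjusted p = 0.0396), and scaling by the median of ratios gave 1 higher and 5 lower. The count of 7 was 1 without Afatinib replicate 1 or 2, 4 without replicate 2 of DMSO set 1 and 2 without replicate 2 of DMSO set 2. All 7 were kept with the mitochondrial share and the replicate number as terms. Dendritic cell markers summed to 35 to 49 in the Afatinib samples against 61 to 92 with DMSO, and their part was not tested.

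Filgotinib, designed against JAK1, had 4 members higher and 2 lower beside 6.1% and 14.6% of all genes. *Cdc6* rose to 45, 64 and 62 (Log2FC 1.56 ± 0.37 SE, adjusted p = 0.000936) from DMSO values of 12, 16 and 26 in DMSO set 1 and 28, 10 and 27 in set 2, its highest mean with any CKI. *Ccnd2* fell to 453, 435 and 479 (Log2FC -1.02 ± 0.25 SE, adjusted p = 0.00103), and all samples of both genes lay beyond DMSO. *Ccne2* (cyclin E2) at 128, 183 and 193 (Log2FC 0.80 ± 0.31 SE, adjusted p = 0.0492), *Cenpf* at 351, 427 and 355 (Log2FC 0.46 ± 0.15 SE, adjusted p = 0.0195) and *Ccnb1* at 1431, 1782 and 1357 (Log2FC 0.44 ± 0.17 SE, adjusted p = 0.0481) were higher and *Kif11* at 446, 570 and 757 lower (Log2FC -0.57 ± 0.21 SE, adjusted p = 0.0393). Scaling by the median of ratios gave 8 higher and 1 lower. The count of 6 was 3 without replicate 2 of either DMSO set, 3 without Filgotinib replicate 1 and 2 without its replicate 2, and *Cdc6* and *Ccnd2* were called in each of these fits. BMS911543 (JAK2) had only *Ccna2* called, at 831, 1136 and 957 (Log2FC -1.15 ± 0.25 SE, adjusted p = 0.000261), beside 0.472% of genes higher and 8.08% lower, and this call was kept in every alternative run.

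The 7 CKIs designed against kinases of the cell cycle itself were Volasertib, GSK461364 and NMS1286937 (PLK1), BMS387032 (CDKs), XL413 (CDC7), MK5108 (Aurora A) and SNS314 (Aurora kinases), and the study set the concentration of each of them on another kinase or enzyme. As a class they had 0 members called by limma, with 6 at an unadjusted p under 0.05, beside 0.385% of genes higher and 0.708% lower. The median Log2FC of the members was 0.061 and that of all genes 0.052. *Cdc25a* had the lowest adjusted p (Log2FC -0.53 ± 0.16 SE, adjusted p = 0.0705), and *Ube2c* (Log2FC -0.18, adjusted p = 0.237) and *Cdc20* (Log2FC -0.25, adjusted p = 0.287) were also below DMSO. This fit held no term for the replicate number. With one, 2 members were higher and 3 lower, the latter *Cdc25a*, *Ube2c* and *Cdc20*, and fewer were called with the mitochondrial share as a further term. Without replicate 1 of DMSO set 2, 1 member was called.

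Volasertib was the only 1 of the 7 with calls, 0 higher and 4 lower beside 0.393% and 1.34% of all genes. *Cdc20* (chr4:118432901-118437343, minus strand) fell to 456, 722 and 544 (Log2FC -0.94 ± 0.19 SE, adjusted p = 0.00105) and *Ube2c* (chr2:164769929-164772902, plus strand) to 913, 1203 and 1160 (Log2FC -0.58 ± 0.12 SE, adjusted p = 0.00187). *Tpx2* gave 454, 532 and 530 (Log2FC -0.43 ± 0.094 SE, adjusted p = 0.00285) against DMSO values of 602, 689 and 711 in DMSO set 1 and 649, 694 and 747 in set 2. *Bub1b*, a kinase-like protein of the spindle checkpoint, gave 343, 397 and 427 (Log2FC -0.46 ± 0.12 SE, adjusted p = 0.0278) against 540, 554 and 610 in DMSO set 1 and 483, 428 and 601 in set 2. All 12 values lay below DMSO, and these genes act together between spindle assembly and anaphase. *Mki67* stood at 1728, 1318 and 2292 (Log2FC 0.0026, adjusted p = 0.996), all inside the DMSO range. *Top2a* stood at 1363, 1840 and 1719 (Log2FC -0.32, adjusted p = 0.305), of which only replicate 1 lay below DMSO. Volasertib samples held 0.790 to 3.57% mitochondrial transcripts, and with that share and the replicate number as terms 7 members were called lower. All 4 calls were lost without Volasertib replicate 1. The other PLK1 inhibitors, at their own concentrations, had no member called against DMSO. With a replicate block GSK461364 had 2 members lower and NMS1286937 1. With NMS1286937 *Bub1b* (-0.37), *Tpx2* (-0.32), *Cdc20* (-0.28) and *Ube2c* (-0.21) were below DMSO on the Log2FC scale. *Bub1b*, *Tpx2*, *Ccnb1*, *Cenpe* and *Cenpf* were called lower with NMS1286937 when the mean of the other CKIs was the reference. *Ccnb1*, *Cenpe* and *Cenpf*, which were not called lower with Volasertib against DMSO, had their lowest means of any CKI with NMS1286937. With GSK461364 *Cdc20* (-0.47) and *Ube2c* (-0.31) were below DMSO, while *Mki67* had values of 3281, 2162 and 2219 (Log2FC 0.53, adjusted p = 0.189).

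The 6 CKIs designed against RAF, MEK or ERK (Encorafenib, Pimasertib, Refametinib, Selumetinib, GDC0994 and Ulixertinib) had 0 members called as a class by limma, with 10 at an unadjusted p under 0.05, beside 0.0629% of genes higher and 0.102% lower. This fit held no term for the replicate number, and with one 1 member was higher and 1 lower. *Cdc25a* (Log2FC -0.59 ± 0.16 SE, adjusted p = 0.0854) and *Cdkn1b* (Log2FC 0.27 ± 0.13 SE, adjusted p = 0.259) were among the 10, and 1 member was called without replicate 1 of DMSO set 2. *Ccnd1*, a known target of ERK signaling in growing cells, was at 600, 970 and 1202 with Pimasertib (Log2FC -0.63, adjusted p = 0.249), 813, 1339 and 2396 with Selumetinib (Log2FC 0.0049, adjusted p = 0.999) and 1364, 1815 and 1831 with Ulixertinib (Log2FC 0.27, adjusted p = 1). These ranges overlapped DMSO, and of the class only Pimasertib had members called singly. With a replicate block Refametinib had 2 members higher and 2 lower, and 0 of each with the mitochondrial share as a further term.

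Of the 11 members never called, 6 were the subunits *Mcm2* to *Mcm7* of the replicative helicase. In 348 tests of these 6 genes by limma none was called and none had an unadjusted p under 0.05, with Log2FC between -0.46 and 0.43. This fit held no term for the replicate number, which accounted for 64.0 to 77.5% of the variance of these 6 genes. That variance entered the error of the tests, so they do not show that the genes were unchanged. With such a term *Mcm7* was called higher in the cell cycle kinase class. The other 5 were *Bub1*, *Ccnb2*, *Ccne1*, *Cdk4* and *Cdkn2c*, and over all 11 members 13 of 638 tests had an unadjusted p under 0.05. *Mcm5* (chr8:75109509-75128439, plus strand) had DMSO values of 1205, 1548 and 1888 in DMSO set 1 and 846, 1585 and 1982 in set 2 and means between 1346 and 1832 with the CKIs. The standard error of a member's difference from DMSO was 0.094 to 0.40 on the log2 scale with a median of 0.20, which bounds what could be detected.

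The values of *Mcm5* differed by replicate number more than by CKI. In the 58 CKIs its median was 1227 (range 928 to 1487) for number 1, 1764 (1346 to 2242) for number 2 and 1866 (1451 to 2240) for number 3. It was higher in number 2 than in number 1 with 58 of 58 CKIs (log2 difference 0.52 ± 0.025 SE, adjusted p = 6.77e-40) and likewise higher in number 3 than in number 1 with 58 of 58 (log2 difference 0.63 ± 0.025 SE, adjusted p = 3.50e-48). Samples of the same number may share a source, which is not given. The p-values between numbers, here and below, thus measure the spread between cultures. Counts such as 58 of 58 are not independent repeats of a number. Number 1 was also the lowest in both DMSO sets. The replicate number accounted for 77.5% of the variance of *Mcm5*, 72.5% of that of *Cdk4* and 70.5% of that of *Mcm2*, against a median of 9.92% over all genes tested. The condition accounted for 10.3% in *Mcm5*, but for 66.4% in *Ccnd2*, 61.2% in *Tpx2* and 59.4% in *E2f8*, against a median of 42.0%. These shares are not adjusted for the 59 conditions against 3 numbers, so spread between samples alone gives the condition the larger share. By role, the median share for the replicate number was 58.1% in replication, 29.8% in the G1 genes, 12.5% in the G1/S regulators and 12.4% in G2 and mitosis.

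Within the same condition, 29 members were higher and 3 lower in number 2 than in number 1, beside 43.9% and 26.0% of all genes. Between numbers 3 and 1, 30 were higher and 5 lower beside 41.2% and 32.4%. Numbers 3 and 2 differed less, with 7 higher and 6 lower beside 16.0% and 21.1% (11 and 6 with scaling by the median of ratios). The median log2 difference of the members was 0.26 between numbers 2 and 1 and 0.25 between numbers 3 and 1, beside 0.059 and 0.028 for all genes. In the 6 DMSO samples alone limma called 0 members and 0 genes in all 3 comparisons, with 13, 19 and 8 members at an unadjusted p under 0.05, and the members' median differences there were 0.24 and 0.29 against number 1.

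In replication, 11 of 12 members were higher in number 2 and 11 of 12 in number 3 than in number 1. *Mcm6* had CKI medians of 1884 (range 1414 to 2875) for number 1, 2754 (1905 to 4214) for number 2 and 3064 (2174 to 4760) for number 3. *Mcm2* was 0.60 and 0.77 higher on the log2 scale in numbers 2 and 3, and each of the 6 helicase subunits was higher in numbers 2 and 3 than in number 1 with at least 57 of 58 CKIs. *Pcna* was the exception, lower in number 2 (log2 difference -0.15 ± 0.041 SE, adjusted p = 0.000746) and not called in number 3. With the mitochondrial share as a covariate *Pcna* was not called in number 2 either (log2 difference -0.067, adjusted p = 0.144 in limma). Among the G1 genes *Ccnd1* had CKI medians of 1095 (range 414 to 1671) for number 1, 1722 (766 to 2512) for number 2 and 2108 (634 to 3606) for number 3. It was higher in numbers 2 and 3 with 58 of 58 CKIs (log2 difference 0.99 ± 0.051 SE, adjusted p = 2.64e-37 for number 3). *Cdk4* (log2 difference 0.33 ± 0.015 SE, adjusted p = 6.81e-42) and *Ccnd3* (log2 difference 0.41 ± 0.032 SE, adjusted p = 1.82e-23) differed the same way. The inhibitor *Cdkn1b* differed the other way (log2 difference -0.43 ± 0.03 SE, adjusted p = 1.86e-26), lower in number 3 than in number 1 with 58 of 58 CKIs, with CKI medians of 296 (range 217 to 544) for number 1, 268 (197 to 462) for number 2 and 220.5 (151 to 456) for number 3. *Cdkn2c* was also lower in number 3 (log2 difference -0.49 ± 0.062 SE, adjusted p = 7.79e-12).

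In G2 and mitosis the differences were smaller, with 10 of 15 members higher and 0 lower in number 2, and 11 higher and 2 lower in number 3. *Cdc20* differed by 0.36 and 0.39 and *Ube2c* by 0.22 and 0.26. *Top2a* was higher in number 3 (log2 difference 0.26 ± 0.03 SE, adjusted p = 8.63e-14) with CKI medians of 1816 (range 1337 to 2137) for number 1, 2042 (1145 to 2903) for number 2 and 2143 (1570 to 2896) for number 3. *Mki67* was lower in number 3 (log2 difference -0.16 ± 0.044 SE, adjusted p = 0.00091) and not called in number 2 (log2 difference -0.002 ± 0.044 SE, adjusted p = 0.972). The 2 markers of division thus differed between replicate numbers in opposite directions, and the difference in *Mki67* did not hold with the mitochondrial share as a covariate (log2 difference 0.042 between numbers 3 and 1, adjusted p = 0.350).

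The replicate numbers also differed in other measures. Median mitochondrial shares were 1.93, 1.34 and 1.09% for numbers 1, 2 and 3. Summed myeloid progenitor markers had medians of 131.5, 239.5 and 259.5 (ranges 91 to 209, 145 to 328 and 168 to 370), summed macrophage markers 201617, 128496 and 119789, and summed neutrophil markers 879, 563.5 and 465. Their part in the differences between numbers was not tested, except that with the mitochondrial share as a covariate 34 members were higher and 1 lower in number 2 and 31 higher and 2 lower in number 3. What a replicate number shares, such as mice, a day or a sequencing run, is not given in the sources used here.

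**Figure D4:**
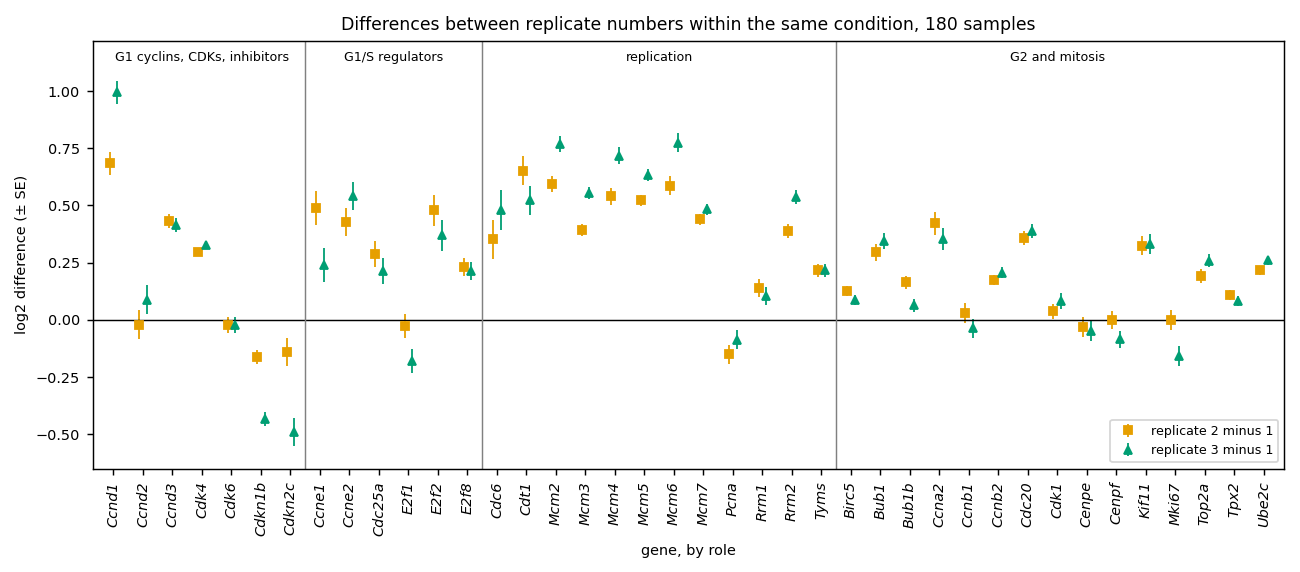
Log2 difference (± SE) between replicate numbers 2 and 1 (squares) and 3 and 1 (triangles) within the same condition for the 40 genes, by role, over 180 samples. The *Mcm* genes and *Ccnd1* lie at 0.39 to 0.99, while *Cdkn1b* and *Cdkn2c* lie below 0.

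**Figure D5:**
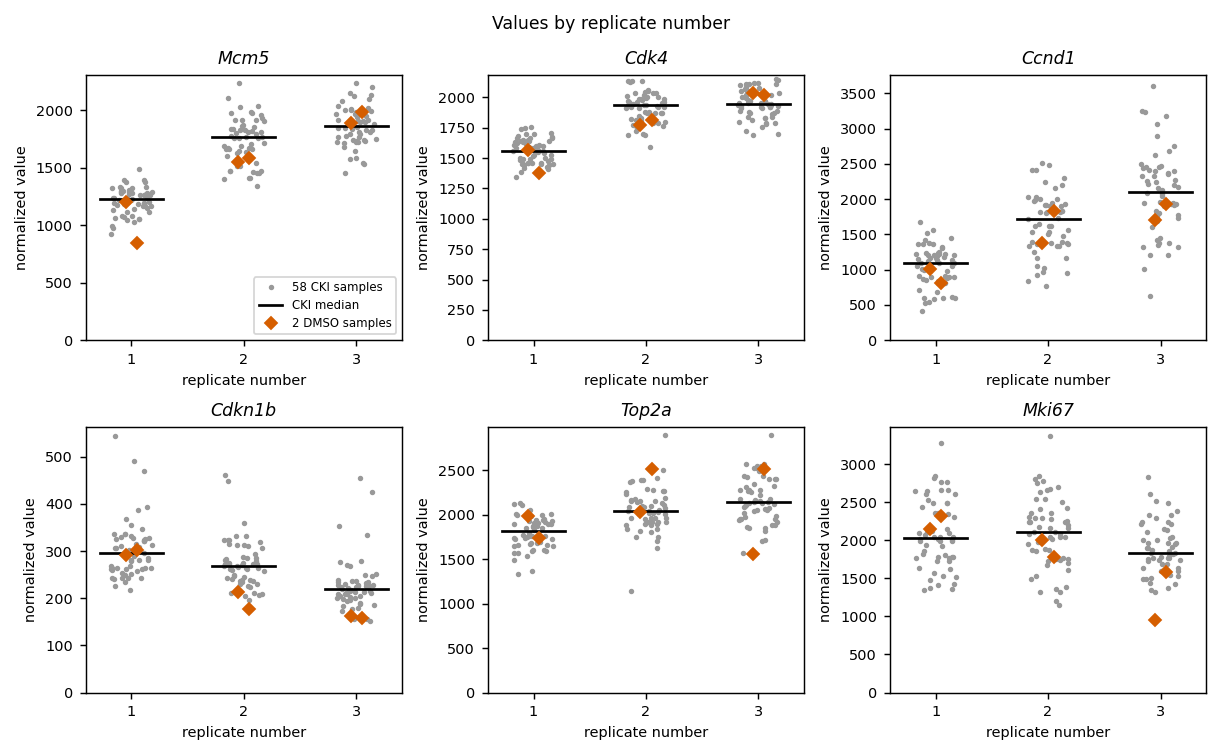
Normalized values of *Mcm5*, *Cdk4*, *Ccnd1*, *Cdkn1b*, *Top2a* and *Mki67* by replicate number in the 58 CKI samples (grey, line at the median) and the 2 DMSO samples (diamonds) of each number. Nearly all *Mcm5* values of number 1 lie below those of numbers 2 and 3, while the *Mki67* values of the 3 numbers overlap.

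Beyond the 40 members, 164 further genes of the cell cycle were listed by role, 56 of replication and 67 of mitosis, all tested, and 41 regulators, of which 36 were tested. In replication 19 of 56 were higher and 0 lower with Pimasertib (33.9%, beside 16.0% of all genes higher), 15 and 0 with Apitolisib (26.8% beside 12.7%) and 12 and 0 with Lenvatinib (21.4% beside 11.4%). With BGT226 14 were higher and 0 lower, which at 25.0% was near its 24.1% of all genes. In the samples of Pimasertib, Apitolisib and Lenvatinib the mitochondrial share and the neutrophil markers were higher too, as given above. With the mitochondrial share and the replicate number as terms, 1 of the 56 was higher with Pimasertib and 0 with Apitolisib and Lenvatinib, against 17 with BGT226. The primase subunit gene *Prim1* gave 169, 219 and 250 against a DMSO mean of 74.8 ± 23.3 with Pimasertib (Log2FC 1.54, adjusted p = 0.00274) and thymidine kinase *Tk1* 1102, 1301 and 1577 against a DMSO mean of 561 ± 152 (Log2FC 1.28, adjusted p = 0.00711). *Orc5* of the origin recognition complex gave 131, 122 and 89 against a DMSO mean of 33 ± 4.2 with BGT226 (Log2FC 1.75, adjusted p = 3.70e-13). With Filgotinib 5 were higher and 3 lower (8.93% and 5.36%, beside 6.1% and 14.6% of all genes), the latter led by *Pole2* (Log2FC -1.41, adjusted p = 0.000403) and *Cdc45* (Log2FC -1.27, adjusted p = 5.40e-05).

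In the wider mitosis list Omipalisib had 6 of 67 higher and 16 lower (8.96% and 23.9%, beside 17.5% and 8.16% of all genes), with Aurora A kinase *Aurka* at 178, 154 and 126 against a DMSO mean of 299 ± 67.1 (Log2FC -0.95, adjusted p = 5.97e-06) and *Cdca2* at 39, 55 and 27 against a DMSO mean of 109 ± 29.1 (Log2FC -1.43, adjusted p = 8.08e-06). *Ncapg2* of condensin II was higher at 1752, 1810 and 1198 against a DMSO mean of 571 ± 188 (Log2FC 1.55, adjusted p = 8.86e-09). BGT226 had 18 higher and 1 lower, or 26.9% higher beside 24.1% of all genes, and 11 and 10 with scaling by the median of ratios. With BGT226, *Ncapg2* stood at 1866, 1712 and 1135 against a DMSO mean of 571 ± 188 (Log2FC 1.53, adjusted p = 7.28e-09). The kinesin *Kif20b* was at 230, 263 and 129 against a DMSO mean of 66.2 ± 20.2 (Log2FC 1.63, adjusted p = 1.97e-08). Volasertib had 0 higher and 11 lower (16.4% beside 1.34% of all genes), led by *Nek2* at 226, 424 and 217 against a DMSO mean of 593 ± 136 (Log2FC -1.07, adjusted p = 0.0042), *Incenp* (Log2FC -0.92, adjusted p = 0.0236) and *Aspm* (Log2FC -0.78, adjusted p = 0.0107), genes of the centrosome, the chromosomal passenger complex and the spindle pole. Pimasertib had 25 higher and 0 lower (37.3% beside 16.0%) and Apitolisib 22 and 0 (32.8% beside 12.7%), of which 1 and 0 were called higher with the mitochondrial share and the replicate number as terms. In that fit Omipalisib had 25 lower and Volasertib 20. Filgotinib had 16 higher and 9 lower (23.9% and 13.4%, beside 6.1% and 14.6%), with cyclin F (*Ccnf*) at 563, 677 and 647 against a DMSO mean of 190 ± 39.2 (Log2FC 1.74, adjusted p = 2.91e-07). Over the 67 genes the median Log2FC was -0.21 with Omipalisib, -0.29 with Volasertib, 0.27 with BGT226 and 0.30 with Pimasertib, beside medians over all genes of 0.12, 0.012, 0.21 and 0.12.

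Among the wider regulators, cyclin G2 (*Ccng2*), an atypical cyclin known as a FOXO target in resting cells, gave 1398, 1345 and 1302 against a DMSO mean of 479.7 ± 83.2 with Omipalisib (Log2FC 1.51, adjusted p = 2.19e-11) and 1297, 882 and 1022 against a DMSO mean of 479.7 ± 83.2 with PF04691502 (Log2FC 1.15, adjusted p = 1.14e-06). With Filgotinib *Ccng2* was lower at 236, 268 and 199 (Log2FC -1.02, adjusted p = 7.69e-06). *E2f6* (Log2FC -2.07, adjusted p = 1.70e-06) and *Fzr1* (Log2FC -1.06, adjusted p = 1.81e-07) were lower with AZD2014. AZD2014 had 2 of 36 regulators higher and 7 lower (5.56% and 19.4%, beside 6.06% and 13.5% of all genes). Filgotinib had 6 and 8 (16.7% and 22.2%, beside 6.1% and 14.6%) and Omipalisib 7 and 7 (19.4% each, beside 17.5% and 8.16%). The antiproliferative gene *Btg2* rose with AZD2014 (Log2FC 1.24, adjusted p = 0.000126), PF04691502 (Log2FC 1.30, adjusted p = 0.000192), Apitolisib (Log2FC 1.01, adjusted p = 0.0136), Filgotinib (Log2FC 1.01, adjusted p = 0.00264) and Lapatinib (Log2FC 0.69, adjusted p = 0.0461). Apitolisib had 4 regulators higher and 1 lower (11.1% and 2.78%, beside 12.7% and 3.2% of all genes). Lapatinib had 3 and 1 (8.33% and 2.78%, beside 18.1% and 5.26%). With the mitochondrial share and the replicate number as terms, 0 regulators were higher with Apitolisib or Lapatinib. Scaling by the median of ratios left 1 higher with Apitolisib and 0 with Lapatinib. PF04691502 had 4 higher and 3 lower (11.1% and 8.33%, beside 8.86% and 4.22% of all genes). BGT226 had 8 and 2 (22.2% and 5.56%), near its 24.1% and 6.32% of all genes. With scaling by the median of ratios BGT226 had 6 and 7. *Lin52* and *Lin54*, subunits of the DREAM and MuvB complexes, rose with BGT226 (Log2FC 1.54, adjusted p = 5.55e-06 and Log2FC 1.19, adjusted p = 6.35e-06), and the kinase gene *Wee1* gave 67, 54 and 45 against a DMSO mean of 21.5 ± 6.06 (Log2FC 1.36, adjusted p = 7.25e-05). Between replicate numbers 2 and 1 the wider lists were called 45 higher and 0 lower of 56 in replication, 47 and 3 of 67 in mitosis and 20 and 8 of 36 among regulators. That is 80.4%, 70.1% and 55.6% higher, beside 43.9% of all genes, and 0, 4.48% and 22.2% lower, beside 26.0%. The largest in each list were *Ung*, the uracil-DNA glycosylase (log2 difference 0.93), *Ndc80* of the kinetochore (0.78) and *Mybl2*, the B-Myb factor (0.70).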

How the data were processed

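RNA-seq was made from polyA RNA of 180 BMDM samples. The authors aligned reads to mm10 with TopHat2 2.1.1, removed blacklisted regions with bedtools 2.29.2, counted reads per RefSeq gene, scaled samples on invariant genes and tested with DESeq2 in R 3.6.2. The values the authors deposited are these scaled counts rounded to whole numbers, a score here and not raw counts, so no count model was run, sequencing depth is unknown, and 0 columns lacked a sample. Groups came from the sample labels.

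Values were tested as log2(value + 1) with limma 3.58.1 in R 4.3.3, with a variance trend, for 12714 genes with a mean of at least 10. All 59 groups entered 1 fit, each CKI was set against the 6 DMSO samples, and p-values (two-sided) were adjusted by Benjamini-Hochberg over all genes. P-values measure the spread between these samples. Classes were contrasts of the mean of their CKIs with DMSO, and replicate numbers were compared with the condition as a term. Scripts, in Python 3.11.15 with NumPy 2.4.6, pandas 2.3.3 and matplotlib 3.10.9 besides R, were tested on simulated data. Alternatives were pseudocounts of 0.5 and 10, no filter or a filter at 50, further scaling by the median of ratios, no variance trend, a replicate block with or without the share of mitochondrial transcripts, other references, and samples left out. Leaving out single DMSO or CKI samples, and the alternatives for the wider lists, were added after seeing the data.

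The members and lists were chosen with earlier results of these data known. Values in every sample are given for up to 12 called members per comparison with the largest differences, and for *Ccnd1*, *Mki67*, *Top2a*, *Mcm5*, *Cdkn1b* and *Cdkn2c*. Members never called are given by ranges, and wider lists by counts and up to 3 called genes with the largest differences.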

Additional observations from a re-analysis of the deposited data

Results flagged for a closer look

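In 3 members 1 of the 6 DMSO samples lay further from the other 5 than Dixon's critical value of 0.625 allows, as a share of the group's range. *Ccna2* was 3475 in replicate 2 of DMSO set 2 against 1598 to 2175 in the others (0.693 of the range). *Ccnb1* was 762 in the same sample against 1123 to 1274 (0.705). *Cdc25a* was 31 in replicate 1 of DMSO set 2 against 69 to 84 (0.717). Chance flags about 1 in 20 groups, and 40 members were examined.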

How the results depend on the processing

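The main count was 86 over 58 CKIs. With DMSO set 1 alone it was 40, with 2 for Afatinib, 0 for Apitolisib and Lenvatinib, 3 for Filgotinib, 5 for Pimasertib and 3 for the PI3K, mTOR and AKT class. With DMSO set 2 alone it was 49, with 4 for Apitolisib, 0 for Lenvatinib, 6 for Omipalisib, 7 for Pimasertib and 4 for that class. Scaling by the median of ratios left 1 for Lenvatinib and gave 1 for the RAF, MEK and ERK class and 1 for the cell cycle kinase class. Against the mean of the other CKIs the counts were 0 for Apitolisib and Lenvatinib and 3 for Pimasertib. With no filter they were 3 for Afatinib, 5 for Apitolisib, 3 for Filgotinib and 1 for Lenvatinib. With only the compared groups in the fit, and so fewer samples behind the spread, the total was 27, with 1 for Afatinib and Apitolisib, 6 for BGT226 and Omipalisib, 0 for Lenvatinib and 4 for Pimasertib. Left-out replicates gave totals of 20 to 119, 0 to 9 for Afatinib, 0 to 10 for Apitolisib, 6 to 12 for BGT226, 0 to 5 for Filgotinib, 0 to 9 for Lenvatinib, 5 to 14 for Omipalisib, 1 to 15 for Pimasertib, 1 to 12 for the PI3K, mTOR and AKT class, 0 to 1 for the RAF, MEK and ERK class and 0 to 3 for the cell cycle kinase class. Where 1 sample of a CKI remained it was assumed to vary like the other groups. Other causes were not tested.

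Same-numbered samples deviated together on average, but not in every pair. The mean correlation of their deviations was 0.344, 0.131 and 0.202 for numbers 1, 2 and 3, with 89.2, 56.6 and 69.5% of 1770 pairs over 0.1, against -0.113 and 22.2% for samples of different numbers. Between the DMSO sets it was 0.553, 0.354 and 0.544. What the numbers stand for is not given in the sources used here, and the main fit had no block. With a replicate block the total was 176, 113 higher and 63 lower, with 14 for Apitolisib, 10 for Filgotinib, 13 for Lenvatinib, 19 for Pimasertib, 20 for the PI3K, mTOR and AKT class, 2 for the RAF, MEK and ERK class and 5 for the cell cycle kinase class, namely *Cdc25a* (adjusted p = 0.0175 in limma with the block), *Ube2c* (0.0239) and *Cdc20* (0.0458) lower and *Tyms* (0.0293) and *Mcm7* (0.0459) higher. With the replicate block and the share of mitochondrial transcripts it was 90, with 0 for Apitolisib and Lenvatinib, 2 for Pimasertib and 2 for the cell cycle kinase class.

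Between replicate numbers the DMSO samples alone gave counts of 0, 0 and 0 in place of 32, 35 and 13. *Mki67* between numbers 2 and 1 turned to 0.14 once the mitochondrial share was a covariate and 0.0063 in CKI samples alone, and between 3 and 1 to 0.042 with the covariate. *Cdkn2c* between numbers 2 and 1 turned to 0.010 with the covariate, and *Top2a* between 3 and 2 to -0.19 in DMSO samples alone. None of the 86 calls changed direction in any alternative, and 11 were kept under all planned ones. The depth is unknown, and 3 samples per CKI limit the precision.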
